A study of Caenorhabditis elegans with 3 samples.

Results

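The strong distal intergenic peaks are 1154 sites of BED-3::GFP chromatin immunoprecipitation signal that lie far from annotated coding starts in the genome of Caenorhabditis elegans. They were selected on measured signal: of the 30000 peaks in the list called on the pooled replicates, the 10000 of highest signal were taken, of which 9981 were nuclear. A peak was kept when its summit lay outside every protein-coding gene, more than 2000 bp from every annotated 5′ end of a coding gene or coding transcript, and not within 500 bp of a tRNA, snoRNA, snRNA, rRNA, ncRNA or miRNA gene. The other 8827 strong nuclear peaks were divided into 5623 within 2000 bp of a coding 5′ end, 1495 in coding gene bodies away from 5′ ends and 1709 within 500 bp of a small RNA or ncRNA gene. A further 2768 peaks of the pooled list met the same rule on position but ranked below 10000 by signal, and are called weaker distal peaks here.

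Whole embryos of mixed stages and mixed sex were used, from strain OP651, which carries the unc-119(tm4063) mutation and the transgene wgIs651 with bed-3 joined to TY1, EGFP and 3xFLAG tags, together with a working unc-119 copy. The tag sits at the C-terminus of BED-3, the embryos came from egg bleaching with an age given as 4 hours, chromatin was sheared by sonication to a size range of 200 to 800 bp, and the precipitation used an antibody against GFP. There was 1 group with 3 biological replicates, numbered 1, 3 and 4, from 1 transgenic strain. No control group was analysed here, so a peak is a site of signal in the tagged strain and has not been shown to be a BED-3 binding site. Read depth was not analysed here. The number of peaks and of replicates sets the precision, and intervals on shares cover counting error only, since neighbouring peaks are not independent.

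BED-3 is a zinc finger protein with a BED domain, a DNA-binding fold named after BEAF and DREF of Drosophila, and in worms it is needed for moulting and for late divisions of vulval cells. Most known regulatory DNA of the worm lies close to the 5′ ends of genes, and distal enhancers are known in introns and between genes. The arms of the autosomes hold more repeats and fewer conserved genes than the centres, and tandem arrays, in which a short unit is repeated head to tail, are common there.

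Windows of 50 bp on each side of the summit are shown first for members made of tandem units, because 3 of the 4 highest members carry the core of the same family of repeats, with a unit of 27 bp. A window is called a tandem array here when at least 80% of its bases match the base 1 unit further on, which of these 3 members held for pef-1/fbxa-55 (87.8%), while the self-match was 73.0% at Y64H9A.2/C24H10.4 and 68.9% at prhg-1/nas-30. Coordinates are WBcel235, which is ce11, and each line runs 5′ to 3′ on the strand named. Capitals in the first 3 lines mark each copy of AGAGTAAAA, the shared core of the family, which was chosen after the values were seen. Capitals in the last 2 lines mark 1 repeat unit.
pef-1/fbxa-55, III:931556-931656, plus strand: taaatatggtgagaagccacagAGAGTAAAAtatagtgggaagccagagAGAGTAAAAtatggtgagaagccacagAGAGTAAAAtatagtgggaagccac
Y64H9A.2/C24H10.4, X:5056368-5056468, minus strand: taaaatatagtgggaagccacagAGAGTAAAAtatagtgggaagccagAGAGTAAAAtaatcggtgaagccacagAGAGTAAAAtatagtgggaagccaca
Y73F4A.1/nhr-11, IV:9048287-9048387, plus strand: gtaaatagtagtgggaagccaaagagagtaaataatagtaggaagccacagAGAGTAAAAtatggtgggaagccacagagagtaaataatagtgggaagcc
nlp-46/T28H10.2, V:12510017-12510117, plus strand: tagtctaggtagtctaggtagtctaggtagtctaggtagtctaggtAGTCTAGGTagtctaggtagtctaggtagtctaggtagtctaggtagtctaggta
B0238.9/Y49G5A.1, V:5284751-5284851, plus strand: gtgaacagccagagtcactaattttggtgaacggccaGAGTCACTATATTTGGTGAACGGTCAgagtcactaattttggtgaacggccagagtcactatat

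The windows at pef-1/fbxa-55 and Y64H9A.2/C24H10.4 each held 3 copies of the core in the window. The array beside nlp-46 had a unit of 9 bp and matched itself at 100% of positions 9 bp on. The array at B0238.9/Y49G5A.1 had a unit of 26 bp and matched itself at 88.0% of positions.

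The next windows show the high members that are not arrays, and the member upstream of bed-3, the gene of the tagged protein. Capitals mark the 11 bases around the summit.
nhr-204/lgc-26, V:265395-265495, plus strand: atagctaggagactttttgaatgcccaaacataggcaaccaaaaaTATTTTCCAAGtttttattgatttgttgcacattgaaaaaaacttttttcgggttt
srw-60/nhr-88, II:2974181-2974281, plus strand: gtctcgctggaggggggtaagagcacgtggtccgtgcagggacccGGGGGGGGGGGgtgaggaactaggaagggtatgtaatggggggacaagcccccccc
ztf-27/T09F3.2, II:10388146-10388246, plus strand: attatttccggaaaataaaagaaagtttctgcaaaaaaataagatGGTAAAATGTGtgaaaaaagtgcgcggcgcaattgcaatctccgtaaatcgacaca
gtr-1/F25E2.2, X:806647-806747, plus strand: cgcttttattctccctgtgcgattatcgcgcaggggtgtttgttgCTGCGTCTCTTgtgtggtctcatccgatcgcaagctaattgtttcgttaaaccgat
F54F12.1/Y39E4B.6, III:13068498-13068598, plus strand: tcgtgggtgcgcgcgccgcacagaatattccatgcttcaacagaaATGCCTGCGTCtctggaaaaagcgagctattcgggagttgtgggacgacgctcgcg
Y94H6A.2/nhr-277, IV:2740180-2740280, plus strand: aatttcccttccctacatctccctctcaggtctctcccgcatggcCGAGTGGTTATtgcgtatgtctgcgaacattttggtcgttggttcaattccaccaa
best-13/bed-3, IV:9906176-9906276, plus strand: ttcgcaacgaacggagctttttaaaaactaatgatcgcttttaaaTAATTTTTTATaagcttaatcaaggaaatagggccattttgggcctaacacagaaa

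The windows differed widely in base composition, from 30.7% GC at nhr-204/lgc-26 to 68.3% at srw-60/nhr-88. The window at srw-60/nhr-88 carries long runs of G. The summit at Y94H6A.2/nhr-277 lies inside Y94H6A.t1, annotated as a tRNA pseudogene, a class that the rule did not remove.

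The label held only in part. "Strong" is relative to the pooled list: the signal of the members ran from 45.8 to 498, with quartiles of 49.8, 55.3 and 65.0. The other strong nuclear peaks had a median of 57.3 and a maximum of 1360. Of the members, 23 (1.99%) were in the optimal list, which holds 589 peaks kept by the authors' reproducibility step, against 5.71% of all 9981 strong nuclear peaks. These were the 23 members of highest pooled signal, down to rank 575, and the next member, at rank 605, was not in the list. The share therefore follows the signal used by the rule and is no separate measure of recurrence. The 3 members just inside the threshold, at cox-10/tbc-17, T01G1.4/sec-31 and T08D2.8/Y73B3B.1, had a signal of 45.8 and ranks of 9972, 9989 and 9994. The 3 distal peaks just outside, at nhr-274/rps-28, K07F5.15/nhr-4 and srh-172/srh-171, had the same rounded signal of 45.8 and ranks of 10011, 10016 and 10025. The threshold therefore cuts through peaks of nearly equal signal.

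"Intergenic" means outside coding genes. Of the members, 83 (7.19%) lay inside another annotated gene and 153 (13.3%) lay inside or within 500 bp of such a gene, which left 1001 (86.7%) more than 500 bp from any annotated non-coding gene or pseudogene. Some of the 1001 lay close to the 3′ end of a coding gene. Pseudogenes accounted for 90 of the 153, of which 60 held the summit. A further 32 were within 500 bp of a piRNA gene, 19 were at a lincRNA, 10 at a tRNA pseudogene and 2 at an antisense RNA. The highest members inside a lincRNA were the peak of signal 217 in linc-128, between cutl-22 and cmd-1, and the peak of signal 142 in linc-91, between chd-7 and W09C3.4. The cmd-1 gene encodes calmodulin and chd-7 a chromodomain helicase.

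Members lay 2001 to 37237 bp from the nearest coding 5′ end, with a median of 3626 bp, so most were not far beyond the limit of the rule. The gap between their flanking coding genes had a median of 8898 bp and ran from 246 to 65018 bp. Nearly all intervals had the same deposited width (1149 of 1154), so width carried no further information. Merging overlapping intervals left 1080 members, with 74 absorbed into a higher neighbour.

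The replicates were compared by rank. A member counted as found in a replicate when that replicate's own list had a summit within 100 bp among its 10000 highest peaks. The pooled list holds the reads of all 3 replicates, and all lists share a control alignment, so this recurrence is not independent of the choice of members. Replicate 1 held 338 members (29.3%), where 31.5% of all strong nuclear peaks were found. Replicate 3 held 286 (24.8%), against 28.6%, and replicate 4 held 542 (47.0%), against 50.8%. All 3 replicates held 42 members, 3.64% with an exact Clopper-Pearson 95% interval of 2.64 to 4.89, against 7.17% of all strong nuclear peaks. A further 208 members were found in 2 replicates, 624 in 1 replicate and 280 (24.3%) in none.

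The share found was 33.7% ± 11.7 (SD, n = 3 replicates) for members and 37.4% ± 12.1 for the other strong nuclear peaks. It was lower for members in 3 of 3 replicates, by 3.74 percentage points with an SD of 1.08, and the exact two-sided sign-flip permutation test gave p = 0.25, the smallest p that 3 replicates allow. The groups also differed in pooled rank: 53 of 1154 members and 928 of 8827 other strong peaks ranked from 1 to 1000. The test therefore cannot separate position from signal, and the pooled signal holds the reads of these replicates. The other strong peaks are a mixture: strong peaks within 500 bp of a small RNA or ncRNA gene were found in all 3 replicates in 19.7% of cases, those near coding 5′ ends in 5.51% and those in gene bodies away from 5′ ends in 1.81%. Against that last class members had the higher share in each replicate, with 23.1%, 24.1% and 46.4% of gene-body peaks found in replicates 1, 3 and 4. The share found fell with pooled rank. Of the 53 members that ranked from 1 to 1000, 27 (50.9%) were found in all 3 replicates, beside 53.9% of the peaks near coding 5′ ends at those ranks. Of the 87 members ranked 1001 to 2000, 9 (10.3%) were found, beside 10.4%. Of the 242 ranked 2001 to 4000, 4 (1.65%) were found, and below that rank 2 of 772. In single replicates the classes lay further apart at ranks 1 to 1000. There 88.7% of members and 76.9% of the peaks near coding 5′ ends were found in replicate 1, 64.2% and 71.9% in replicate 3, and 88.7% and 94.5% in replicate 4. No test was run at each rank, and the plot of peaks found by pooled rank shows all shares.

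**Figure D1:**
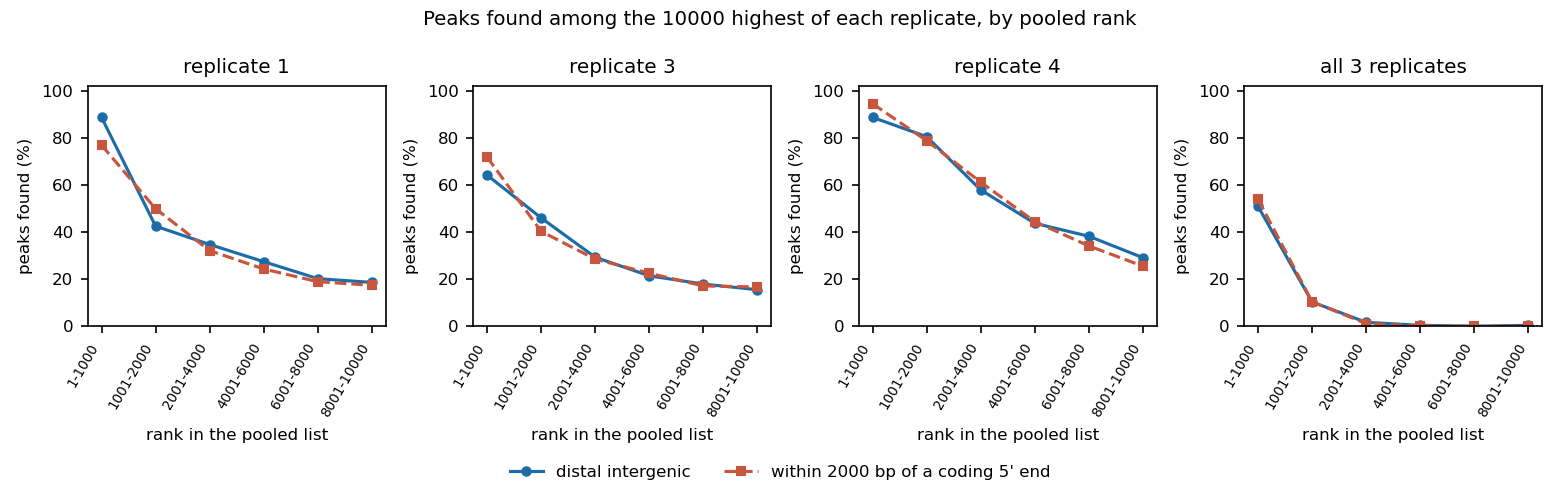
Percent of peaks found among the 10000 highest peaks of replicates 1, 3 and 4 and of all 3 (vertical axes), by rank in the pooled list (horizontal axes), for strong distal intergenic peaks (circles) and strong peaks within 2000 bp of a coding 5′ end (squares). Both lines fall with rank, from 50.9% and 53.9% found in all 3 replicates at ranks 1 to 1000 to under 1% from rank 4001 on.

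Among members with a match in both replicates, the order by signal was only loosely related between replicates. Spearman's rho across members was 0.284 for replicates 1 and 3 (n = 217), 0.177 for replicates 1 and 4 (n = 334) and 0.0952 for replicates 3 and 4 (n = 350). Pearson's r of log2 signal was higher, at 0.565, 0.422 and 0.303. Members were chosen on pooled signal, which holds these reads, and both lists had to hold the peak. The values therefore describe this selected set only, and the part of the selection was not tested. These points share libraries and a control alignment, and members are not independent replicates. When the rule was applied to each replicate's own 10000 highest peaks, it gave 1132, 1191 and 1174 distal peaks. Replicates 1 and 3 shared 93 of them (8.22% and 7.81% of their lists), replicates 1 and 4 shared 138 (12.2% and 11.8%), and replicates 3 and 4 shared 124 (10.4% and 10.6%).

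The highest member lay between prhg-1 and nas-30, an astacin protease gene, on chromosome I, 4965 bp from the nearest coding 5′ end. Its pooled signal was 498, at rank 60, and its ranks in replicates 1, 3 and 4 were 7, 13 and 151, with signals of 330, 242 and 153. It was high in every replicate. Its window carried the core of the 27 bp family and matched itself at 68.9% of positions 27 bp on, and 92.1% of its bases were soft-masked.

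The array at pef-1/fbxa-55 on chromosome III had a pooled signal of 286 and ranks of 58, 64 and 179 in replicates 1, 3 and 4. The pef-1 gene encodes a protein phosphatase with EF hands and fbxa-55 an F-box protein. The imperfect repeat at Y64H9A.2/C24H10.4 on chromosome X had a signal of 261 and ranks of 67, 152 and 264. Both were again high in all 3 replicates. The 9 bp array beside nlp-46, a neuropeptide-like gene on chromosome V, had a signal of 199 and ranks of 305, 340 and 396, the narrowest spread among these 4. Its 36-mers had a median of 89 copies in the genome.

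In all, 12 members (1.04%) carried the core AGAGTAAAA or its complement in the window, against 0.193% of the other strong nuclear peaks and 0.542% of the weaker distal peaks. Of these 12, 3 ranked in the top 1000 and 4 were found in all 3 replicates, beside 4.59% and 3.64% of all 1154 members. The core was chosen after these values were seen, so the counts are no separate measure of recurrence. The genome held 51 clusters with at least 4 copies of the core, each within 100 bp of the next. Of these, 35 were distal by the same rule and 10 lay at a member, while 13 lay at any strong peak. Most clusters of this core therefore carried no strong peak. Members of this family ranged down to a signal of 49.3 at Y50D4B.2/Y50D4B.1, where ranks were 6630 in replicate 1 and 6087 in replicate 4 with no match in replicate 3.

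Some members ranked far better in the replicates than in the pooled list, among them repeated and single-copy ones. The array at Y73F4A.1/nhr-11 on chromosome IV ranked 248, 127 and 2229 in replicates 1, 3 and 4 but 3669 in the pooled list, with a pooled signal of 62.6. The array at thoc-5/Y32H12A.1 on chromosome III, with a 26 bp unit, ranked 152, 258 and 1412 but 4736 in the pooled list, with a signal of 58.0. A member at cpn-3/F28H1.1 on chromosome I, no array but with 80.3% of its 36-mers repeated, ranked 327, 5809 and 5469 but 8829 in the pooled list. The treatment of reads that map to several places, not given in the sources used here, was not tested for its part in these ranks. These 3 members were chosen after their values were seen, as was the single-copy member at wrt-9/H11E01.3, which ranked 2762 and 2695 in replicates 3 and 4 but 7216 in the pooled list, with no match in replicate 1.

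Repeats were otherwise a small class. A member was called repeated when at least 50% of the 36-mers in its window occurred again elsewhere in the genome, which held for 46 (3.99%), with a 95% interval of 2.93 to 5.28, against 4.04% of the other strong nuclear peaks and 4.48% of the weaker distal peaks. At least 1 repeated 36-mer occurred in 153 (13.3%), and 24 (2.08%) were tandem arrays by a self-match of at least 80%. The mean share of repeated 36-mers was 4.94% over members, while 16.5% of the 36-mers in all sequence eligible under the rule were repeated. At least 50% of bases were soft-masked in 455 members (39.4%), beside 31.4% of the other strong nuclear peaks and 40.3% of the weaker distal peaks, while 42.3% of eligible bases were soft-masked. By class, 7 of the 46 repeated members (15.2%) were found in all 3 replicates, 5 of 107 partly repeated members (4.67%) and 30 of 1001 single-copy members (3.00%). The median signals of the 3 classes were close, at 54.6, 54.3 and 55.4, but their upper ranks differed. Ranks 1 to 1000, which held 27 of the 42 members found in all 3 replicates, held 6 of the 46 repeated members. They held 6 of the 107 partly repeated and 41 of the 1001 single-copy members.

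Another array core, CCGGCAAAT, which recurs in units of 35 to 43 bp, occurred in 45 members (3.90%), 2.12% of the other strong nuclear peaks and 1.91% of the weaker distal peaks. Its highest member had a signal of 110. Of its 794 clusters in the genome, 121 were distal by the same rule and 17 lay at a member, while 120 lay at any strong peak. Of the 45, 1 was found in all 3 replicates, beside 42 of all 1154 members (3.64%). This core, too, was chosen after the values were seen.

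The second highest member lay at nhr-204/lgc-26 near the left end of chromosome V, between genes for a nuclear hormone receptor and a ligand-gated ion channel. It was no tandem array, but 86.4% of its 36-mers were repeated, with a median of 3 copies. Its ranks were 296, 35 and 5001 in replicates 1, 3 and 4, so its pooled signal of 370 did not recur evenly. Most of the other high members lay on single-copy DNA, and the plot of ranks of the 25 highest members shows how far their replicates spread.

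**Figure D2:**
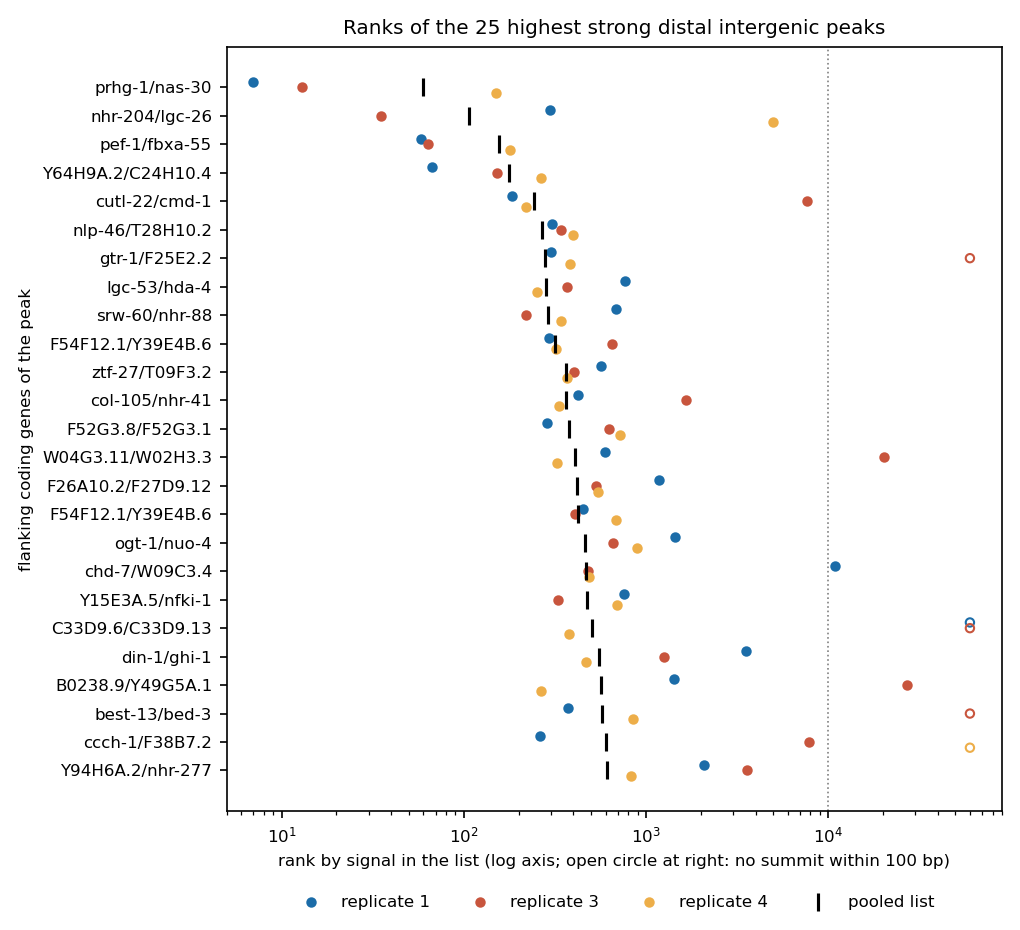
Rank by signal (horizontal axis, log scale) of the 25 highest strong distal intergenic peaks (vertical axis, named by their flanking coding genes) in replicates 1, 3 and 4 (coloured points) and in the pooled list (black bars), with the dotted line at rank 10000. Open circles at the right edge mark the 5 cases with no summit within 100 bp, and 18 of the 25 peaks have all 3 points left of the dotted line.

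The member in linc-128, at cutl-22/cmd-1, had a signal of 217 and ranks of 183, 7628 and 219 in replicates 1, 3 and 4. At gtr-1/F25E2.2 on chromosome X the signal was 195, with ranks of 301 and 381 in replicates 1 and 4 and no match in replicate 3. Replicate 3 was the low sample in both. The member at lgc-53/hda-4, beside a gene for a histone deacetylase, had a signal of 193 and ranks of 768, 371 and 251. At srw-60/nhr-88, between genes for a chemoreceptor and a nuclear hormone receptor, the signal was 191 and the ranks were 685, 220 and 340. Both of these recurred within the top 1000 of every replicate.

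The member at ztf-27/T09F3.2 lay 63 bp past the 3′ end of ztf-27, a zinc finger gene, and had a signal of 167 and ranks of 565, 404 and 370. At col-105/nhr-41, between a collagen gene and a nuclear hormone receptor gene, the signal was 166 and the ranks were 425, 1668 and 334. At F52G3.8/F52G3.1 the signal was 163 and the ranks were 288, 623 and 724. The first was level across replicates, while the second was lower in replicate 3. The member at W04G3.11/W02H3.3, of signal 158, ranked 596 and 324 in replicates 1 and 4 but 20262 in replicate 3.

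Lower members of the top 25 spread in the same way. At ogt-1/nuo-4, between the O-GlcNAc transferase gene and a gene for a complex I subunit, a signal of 144 came with ranks of 1445, 657 and 898. At Y15E3A.5/nfki-1 the signal was 141 and the ranks were 755, 331 and 693. At F26A10.2/F27D9.12 the signal was 154 and the ranks were 1182, 535 and 543. These recurred in every replicate. In contrast, the member at C33D9.6/C33D9.13, of signal 135, ranked 379 in replicate 4 and had no match in replicates 1 and 3. The member in linc-91 ranked 10844 in replicate 1 and 482 and 487 in replicates 3 and 4. At din-1/ghi-1, beside the gene of a corepressor partner of DAF-12, a signal of 128 came with ranks of 3552, 1249 and 468.

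The array at B0238.9/Y49G5A.1, of signal 126, ranked 1425 and 265 in replicates 1 and 4 but 27033 in replicate 3. At ccch-1/F38B7.2, of signal 121, the ranks were 263 and 7852 in replicates 1 and 3 with no match in replicate 4. The member in the tRNA pseudogene at Y94H6A.2/nhr-277 had a signal of 120 and ranks of 2074, 3607 and 831. Of the 25, 18 were found in all 3 replicates, and 11 were in the top 1000 of all 3. At pooled ranks 1 to 1000, 50.9% of members and 60.1% of the other strong nuclear peaks were found in all 3. The 25 were chosen on pooled signal, which holds the reads of these replicates, so their share is no separate measure of recurrence. The top 1000 of replicate 4 held 23 of the 25, beside 18 for replicate 1 and 15 for replicate 3. Of the 25, 23 were in the optimal list, which the authors' steps derived from replicates 3 and 4 and the pooled list. They were the 23 of highest pooled signal, so presence in that list followed pooled rank here.

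A member lay upstream of bed-3 itself, 10298 bp from the gene on chromosome IV and 292 bp past best-13, a bestrophin channel gene. Its pooled signal was 124, at rank 575, and it ranked 373 and 850 in replicates 1 and 4 with no match in replicate 3. A second member 200 bp further on had a signal of 64.1 and ranks of 7225, 9364 and 5156. Within 20000 bp, bed-3 had 3 members and unc-119 had 2, the nearest of the latter of signal 58.0 at 8301 bp. The transgene carries extra copies of both genes. The part of these extra copies in the signals was not tested.

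Many members shared a gap between genes with another member. The 1154 members fell in 791 gaps, of which 221 held several members, 584 in all. Some neighbours overlapped, since merging overlapping intervals removed 74 members. The part of gap length in this sharing was not tested. The fullest gap, of 26989 bp between col-105 and nhr-41 on chromosome IV, held 10 members and 1 of them was found in all 3 replicates. The gap of 15313 bp between F54F12.1 and Y39E4B.6 on chromosome III held 9. Of those, 3 were found in all 3 replicates, with signals of 181, 154 and 108. The highest ranked 294, 651 and 321 in replicates 1, 3 and 4, the next 450, 410 and 684, and the last, 200 bp from the second, 635, 486 and 2705. The other 6 in the gap were each found in at most 1 replicate. The gap of 27973 bp between F57G12.1 and cab-1 on chromosome X held 8 members and none was found in all 3 replicates, beside 3.64% of all members. The gap of 12078 bp between B0348.10 and egl-8, a phospholipase C beta gene at the left end of chromosome V, held 7, of which 1 was found in all 3.

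Members lay mostly on chromosome arms, taken as the outer 25% at each end. Of the 947 autosomal members, 639 (67.5%) lay on arms, with a 95% interval of 64.4 to 70.5. The share was 59.8% for the other strong nuclear peaks, 74.5% for strong peaks in gene bodies away from 5′ ends and 64.6% for weaker distal peaks. The rule itself sets part of this, since 57.1% of the eligible autosomal sequence was on arms. Per Mb of eligible sequence there were 97.2 members on autosomal arms and 62.3 in centres. Chromosome V had 87.0 on arms and 34.0 in the centre. Chromosome IV was the exception, with 50.6 on arms and 63.5 in the centre, as the plot of density by chromosome shows.

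**Figure D3:**
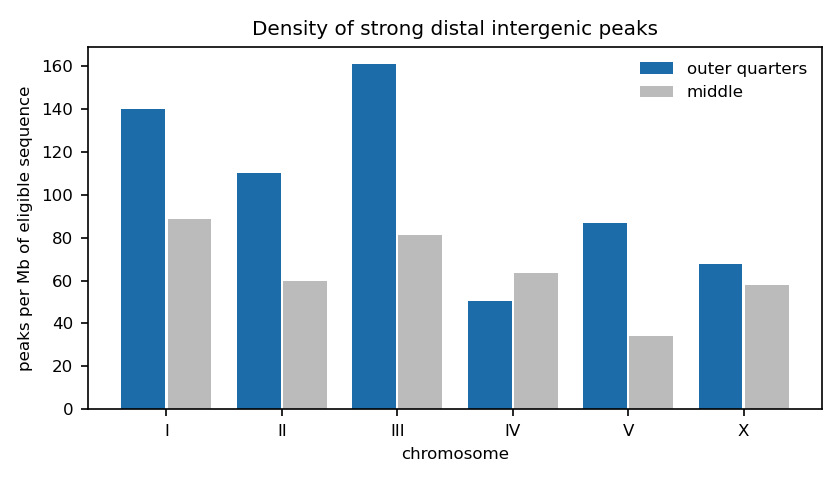
Strong distal intergenic peaks per Mb of sequence eligible under the rule (vertical axis, from 0), on the outer 25% at each end (blue) and in the middle (grey) of each chromosome (horizontal axis). Arms are higher on every chromosome but IV, where the values are 50.6 and 63.5.

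By chromosome, members per eligible Mb were 124 on chromosome III (219 members), 117 on I (200), 86.1 on II (170), 63.8 on X (207), 63.5 on V (177) and 55.3 on IV (181). The densities on X, V and IV lay close together, and those on I and III were the highest. The eligible sequence was 14.8 Mb in all, 14.7% of the nuclear genome, with 34.2% GC. No p is given for these densities, since members of 1 gap are not independent.

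In the lists made by the same rule from each replicate's own peaks, the arm share was 59.0%, 58.2% and 67.8% in replicates 1, 3 and 4, and 61.7% ± 5.32 on average. Replicates 1 and 3 thus lay close to the 57.1% of eligible autosomal sequence on arms, and only replicate 4 was near the pooled 67.5%. Without replicate 4 the mean was 58.6%. The arm share was higher than for the other strong nuclear peaks of the same replicate in 3 of 3, by 6.54 percentage points with an SD of 1.36 (exact two-sided sign-flip permutation p = 0.25, the smallest possible). Against the weaker distal peaks of the same replicate it differed by 0.710 with an SD of 2.14, within the spread between replicates. The share on the X chromosome was 19.9%, 23% and 17.2% in replicates 1, 3 and 4. It exceeded that of the other strong peaks by 4.58 with an SD of 1.52 in 3 of 3 replicates, while its difference from the weaker distal peaks was -1.04 with an SD of 1.85. The X chromosome held 3.25 of the 14.8 Mb of eligible sequence. Its density of pooled members, 63.8 per eligible Mb, was below the 78.2 over all nuclear chromosomes. No test of position against signal was run on the arm and X shares.

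Soft-masked windows made up 36.6% ± 1.38 of the replicates' strong distal peaks and were more frequent than among the other strong peaks in 3 of 3 replicates, by 6.64 with an SD of 2.16 (exact sign-flip permutation p = 0.25). The share of repeated windows was 3.41% ± 1.03 beside 2.75% ± 0.616 for the other strong peaks, a difference within the spread between replicates, higher in 2 of 3 (exact sign-flip permutation p = 0.500).

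**Figure D4:**
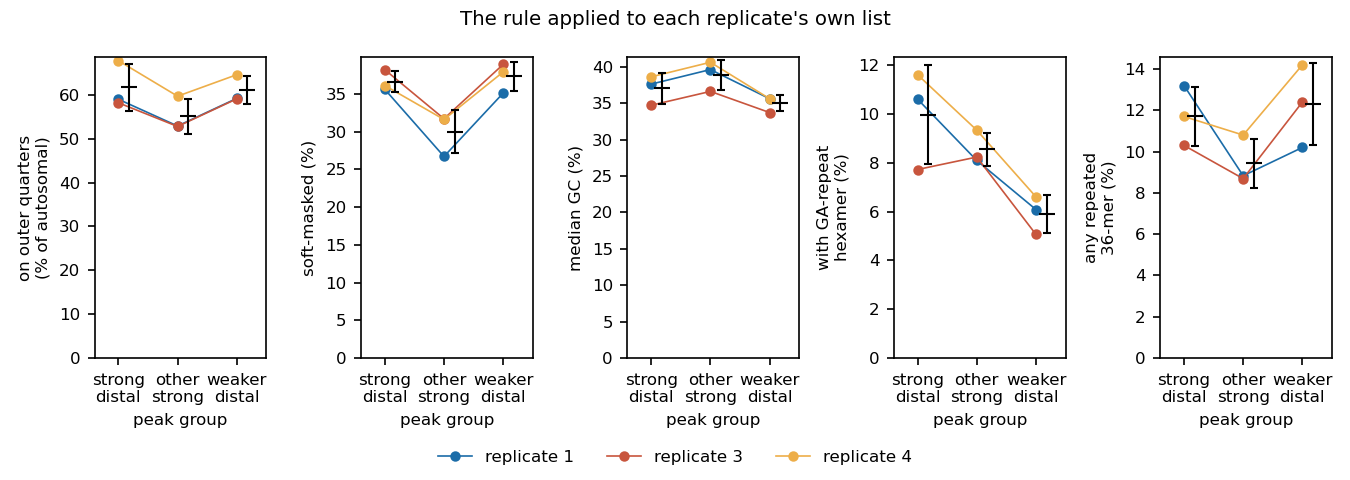
Values of 5 measures (vertical axes, in percent) for strong distal, other strong and weaker distal peaks (horizontal axes) when the rule was applied to each replicate's own list; points are replicates 1, 3 and 4, lines join the points of a replicate, and black bars are the mean and SD of the 3. Arm and soft-masked shares are higher for strong distal than for other strong peaks in every replicate, and GC content and the GA-repeat hexamer are higher than for weaker distal peaks in every replicate.

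Base composition varied with signal. The windows of members had a median GC content of 39.6% with a range of 14.9% to 74.3%, above the 34.2% of eligible sequence and the median of 35.6% of weaker distal peaks. Members at pooled ranks 1 to 1000 had a median of 47.5% and those at ranks 8001 to 10000 had 35.6%. The peaks near coding 5′ ends had 47.5% and 37.6% at those ranks. In the replicates' own lists, strong distal peaks had a median GC of 37.0% ± 2.06, higher than the weaker distal peaks in 3 of 3 replicates by 1.98 with an SD of 0.990 (exact sign-flip permutation p = 0.25), and lower than the other strong peaks in 3 of 3, with a difference of -1.98 in each replicate. How GC content affected amplification or read counts was not tested.

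**Figure D5:**
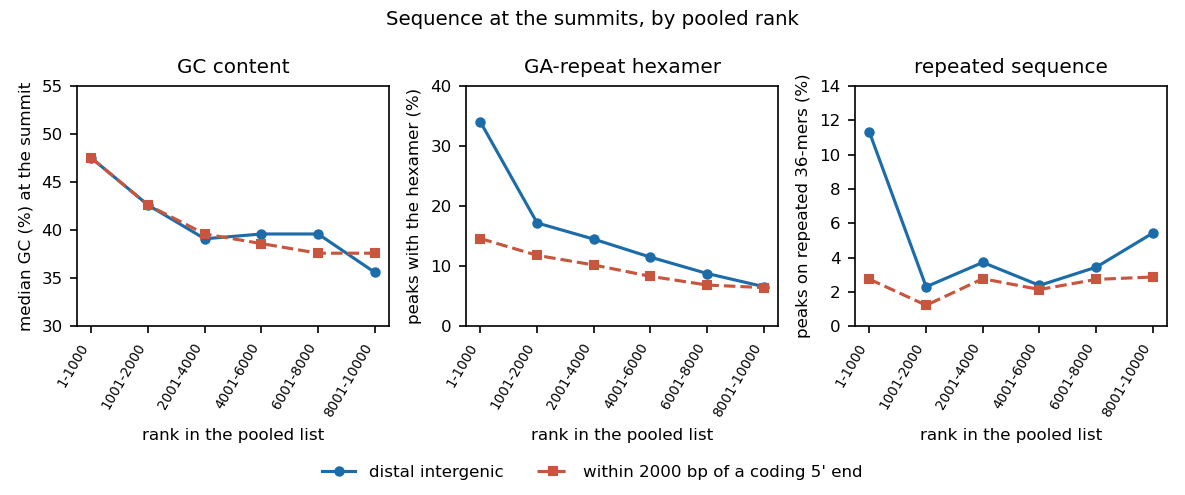
Median GC content of the window around the summit, percent of peaks with the GA-repeat hexamer in that window, and percent on repeated 36-mers (vertical axes), by pooled rank (horizontal axes), for strong distal intergenic peaks (circles) and strong peaks within 2000 bp of a coding 5′ end (squares). GC falls from 47.5% in both classes, while the hexamer falls from 34.0% in distal peaks and 14.6% near 5′ ends.

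Of the 10 preset motifs, each searched on both strands of the window, GAGAGA had the largest difference, in percentage points, between members and weaker distal peaks. This GA-repeat hexamer occurred in 137 members (11.9%), 9.31% of the other strong nuclear peaks and 5.89% of the weaker distal peaks. Among the 53 members ranked 1 to 1000 it occurred in 18 (34.0%), beside 14.6% of the peaks near coding 5′ ends at those ranks. The 27 bp repeats overlap it, and without the members that carry their core the share was 11.7% in all and 32% at ranks 1 to 1000. In the replicates' own lists the share was 10.6%, 7.72% and 11.6% in replicates 1, 3 and 4. That was above the weaker distal peaks in 3 of 3, by 4.06 with an SD of 1.23 (exact sign-flip permutation p = 0.25), and above the other strong peaks in 2 of 3, by 1.42 with an SD of 1.67, within the spread between replicates.

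The core of the tRNA B-box, GTTCGA, occurred in 37 members (3.21%), 4.96% of the other strong nuclear peaks and 3.61% of weaker distal peaks. The GATA motif TGATAA occurred in 57 members (4.94%), 5.45% of the other strong and 7.55% of the weaker distal peaks, and AGATAA in 36 (3.12%), 4.30% and 5.20%. TATCGA, part of the site of the Drosophila BED-type protein DREF, occurred in 37 members (3.21%), 4.44% and 3.00%. The telomere repeat unit TTAGGC occurred in 60 (5.20%), 5.10% and 4.48%. TATAAA occurred in 8.75% of members, 9.19% and 12%, and TTAATT in 13.0%, 12.8% and 15.3%. The A and T rich motifs were thus less frequent in members than in weaker distal peaks, which had the lower GC content. GCGCGC occurred in 27 members (2.34%), 2.97% and 1.19%, and CACGTG in 13 (1.13%), 1.80% and 1.37%.

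The flanking coding genes were in tandem orientation for 665 members (57.6%), divergent for 326 (28.2%) and convergent for 159 (13.8%), with 4 members at a chromosome end. The weaker distal peaks had 55.5%, 29.9% and 14.1%. In the replicates' own lists the convergent share was 14.2% ± 0.540 for strong and 14% ± 0.793 for weaker distal peaks, a difference within the spread between replicates. A summit within 500 bp of a coding 3′ end was found for 182 members (15.8%), beside 12.6% of weaker distal peaks. A rule that keeps peaks away from 5′ ends bears on these shares in both classes.

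In all, 1498 of 19973 coding genes (7.50%) flanked a member. By family, 9 of 26 patched-related genes did (34.6%), 4 of 19 T-box genes (21.1%), 12 of 63 homeobox genes (19.0%), 4 of 25 helix-loop-helix genes (16%) and 29 of 269 nuclear hormone receptor genes (10.8%). Chemoreceptor genes flanked a member in 44 of 1174 cases (3.75%), collagen genes in 7 of 156 (4.49%), F-box genes in 10 of 322 (3.11%) and C-type lectin genes in 5 of 240 (2.08%). No histone gene of 72 and no ugt gene of 67 flanked a member. The part of gap length in these shares was not tested. As a share of peaks, nuclear hormone receptor genes flanked 58 members (5.03%) and 4.66% of weaker distal peaks, and patched-related genes flanked 15 members (1.30%) and 0.759%. Collagen genes flanked 19 members (1.65%) and 1.01% of weaker distal peaks. The 10 members between col-105 and nhr-41 count in both the collagen and the nuclear hormone receptor lists. In the other direction, C-type lectin genes flanked 0.433% of members and 1.12% of weaker distal peaks, Hedgehog-related genes 0.520% and 0.650%, and helix-loop-helix genes 0.347% and 0.434%. Of the 16 lists, 9 had the higher share in members and 7 in weaker distal peaks, and no test was run on a list.

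Among regulators of developmental timing and the epidermis, 4 of 11 genes (36.4%, beside 7.50% of all coding genes) flanked a member: bed-3, blmp-1, elt-3 and nhr-25. As a share of peaks, these genes flanked 6 members (0.520%) and 0.578% of weaker distal peaks. Of the 6 members, 3 lay beside bed-3, of which the transgene carries extra copies, and the part of these copies was not tested. The member at tag-353/blmp-1, beside the gene of a zinc finger transcription factor of the Blimp family, had a signal of 64.8 and ranks of 8750 and 21324 in replicates 1 and 4, with no match in replicate 3. The member at elt-3/alg-1, beside the gene of an epidermal GATA factor, had a signal of 54.0 and ranks of 3919 and 12395 in replicates 1 and 4, with no match in replicate 3. The member at vwa-8/nhr-25 had a signal of 48.5 and a rank of 10437 in replicate 4 alone. None of these 3 was found in all replicates, as were 3.64% of all members.

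Of the patched-related genes, which encode relatives of the Hedgehog receptor Patched, ptr-21 had the highest member, at wwp-1/ptr-21, with a signal of 80.2 and ranks of 17552, 5892 and 1497. The members at ptc-3/Y110A2AL.5 had signals of 55 and 51.6. None of the 15 members beside patched-related genes was found in all 3 replicates. Of all members only 3.64% were, so few or none would be found in a set of this size. The T-box gene tbx-34 and tra-1, the Gli-family regulator of sex determination, shared a gap with 6 members, of signals 72.9 and lower, none found in all 3 replicates. The gap between egl-4, a cGMP-dependent protein kinase gene, and egl-18, a GATA factor gene, held a member found in all 3, of signal 92.9 at ranks 1698, 1131 and 2839. The highest member beside sma-9, a gene of body size signalling, at R07A4.3/sma-9, had a signal of 120 and ranks of 423, 470 and 3852. The members beside egl-18 and sma-9 were chosen after their values were seen.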

How the data were processed

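The deposited peak lists give for each peak a start, an end, a summit offset and the authors' signal value, on the scale of the authors' caller, which, like the aligner, goes unnamed (not given in the sources used here). Each replicate's list was called from its own alignments and the pooled list from all 3, with 1 shared control alignment, per the deposited file listing. The deposited −log10 q was not used to rank peaks. Members and lists were chosen with earlier results of these data known.

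Coordinates are ce11 per the labels, and genes are those of Ensembl release 115 on WBcel235. The 5′ ends were those of coding genes and of their coding transcripts. Windows of 50 bp on each side of the summit were read from the RefSeq genome of the same build. Repeats were found by counting 36-mers on both strands of the genome and by self-match at shifts up to 50 bp, with at least 80% for an array. No annotation of repeat families was used here.

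Named members were the 25 highest, the 5 highest of 4 classes, those beside the threshold, in the optimal list or beside a listed gene, and bed-3 and unc-119; members named outside this rule are said to be so or come from the fullest gaps. Shares have exact Clopper-Pearson 95% intervals. Replicate values were compared by an exact two-sided sign-flip permutation test, which cannot go below 0.25 with 3 replicates, and p-values measure only the spread between these replicates. The scripts were tested on simulated data. Alternatives changed the number of peaks, the distances, the match, the definition of arms and repeats, and the window; 5′ ends of genes only was added after the data were seen. Python 3.11.15, numpy 2.4.6, pandas 2.3.3 and scipy 1.17.1 were used.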

Additional observations from a re-analysis of the deposited data

How the results depend on the processing

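Of 70 alternative values, 41 stayed close to the reported value and 29 moved. Close means within 1.5 times for the number of peaks, within the 95% interval for the share found in all 3 replicates, and within 1 SD of the replicates' own lists for the others, so the moves in the convergent and B-box shares listed next, other than in the optimal list and the wider window, lay inside their 95% intervals. The 5000 highest pooled peaks gave 508 distal peaks, 8.07% found in all 3 replicates, 13.0% between convergent genes and 2.95% with the B-box core. The optimal list gave 23 distal peaks, 73.9% found in all 3, 56.2% on arms, 21.7% on repeated sequence, 13.0% convergent, a median GC of 51.5% and 0% with the core. A distance over 1000 bp gave 1756 peaks, and over 5000 bp gave 321 with 2.80% holding the core. Without summits at other annotated genes, 13.1% were convergent and 2.80% held the core. With 5′ ends of genes only, chosen after the data were seen, 14.8% were convergent. The share found in all 3 replicates was 1.91% with summits within 50 bp, 6.67% within 200 bp, 2.60% among the 5000 highest of each replicate and 11.5% anywhere in each list. Leaving out 1 replicate gave 6.76% to 12.1%, since fewer lists then had to hold the peak. Arms as the outer 33.3% at each end held 82.7% and as the outer 30% held 76.0%. Any repeated 36-mer gave 13.3%, soft-masking 39.4%, and a window of 100 bp on each side gave 5.72% with the core. The cause was not tested unless the change of rule itself is the cause. The sign-flip tests paired values within a replicate, and with 1 group no fit across groups with a replicate block was made. The share found in all 3 replicates and the share on repeats therefore depend on these definitions, while the arm share moved with the definition of an arm and in the optimal list. The number of replicates limits every comparison, and read depth was not analysed here.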
